A study of Mus musculus with 24 samples.

Results

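The comparison set RNA of mouse marrow-derived mesenchymal stem cells after 7 days in adipogenic medium against RNA of the same kind of cells after 15 days in osteogenic medium. It used 6 of the 24 RNA-seq libraries of the series, 3 of adipogenic day 7 and 3 of osteogenic day 15, chosen by the medium, day and treatment that their labels give. Both groups received ethanol, the vehicle of the study's vitamin D treatment, for the last 24 hours. Adipogenic medium held insulin, indomethacin, a cyclooxygenase inhibitor that also acts on PPAR gamma, and dexamethasone, a synthetic glucocorticoid. Osteogenic medium held β-glycerophosphate, a phosphate source, and ascorbic acid, a cofactor of collagen hydroxylation. The other libraries were undifferentiated cells (day 0), osteogenic day 7, and the same 4 states treated with 100 nM 1,25(OH)2D3 (VD3), the hormonal form of vitamin D. Cells came from cryopreserved stocks of at most 10 passages, grown to confluence in MEM alpha before the medium was changed. Medium and day differ together here, so an effect of the medium and an effect of 7 against 15 days cannot be told apart.

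Marrow stromal cells can become adipocytes, which store triglyceride in droplets and secrete adipokines, or osteoblasts, which secrete a collagen-rich matrix and mineralize it. The adipocyte fate is driven by the nuclear receptor PPAR gamma together with C/EBP alpha, which turn on fat uptake, fat synthesis and droplet coat genes. The osteoblast fate is driven by Runx2 and Sp7 (osterix), which precede the genes of bone matrix, and Wnt and BMP signals promote it. Some osteoblasts become osteocytes, cells embedded in bone that are joined through gap junctions.

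Libraries of total RNA depleted of ribosomal RNA gave 1 deposited RPKM value (reads per kilobase of transcript, scaled to the reads of the library) per transcript, summed here by gene symbol to 25385 genes. Depth in units of 1e6 reads, estimated from the steps between low values, was 24.98 to 26.2 for the adipogenic libraries and 31.92 to 44.34 for the osteogenic day 15 libraries. A 1-kilobase transcript with 3 reads would show 0.115 to 0.120 RPKM in an adipogenic library and 0.0677 to 0.0940 RPKM in an osteogenic one, so lower values carry little information. Across genes, log2 values of 2 adipogenic libraries correlated at 0.988 to 0.989, those of 2 osteogenic day 15 libraries at 0.981 to 0.993, and those of libraries of different groups at 0.883 to 0.899. The median of 1463 olfactory, vomeronasal and taste receptor genes, which neither cell type is known to use, was 0.599 to 0.834 RPKM in the adipogenic libraries and 0.265 to 0.427 RPKM in the osteogenic day 15 libraries. Of the 1441 of these genes that were tested, 34 were called higher in adipogenic libraries and 0 lower. This count was 16 to 35 with 1 library left out (17 higher without osteogenic replicate 1, 16 higher and 2 lower without osteogenic replicate 3, 17 without adipogenic replicate 1 or 3). It was 142 after median-ratio rescaling, 68 (and 9 lower) after quantile normalization, 154 with a pseudocount of 0.1, and 134 of 282 tested in a fit on the libraries compared. Of the 1463, between 0.684 and 1.30% were listed at 0 in an adipogenic library and between 2.46 and 31.6% in an osteogenic one, the highest share in osteogenic replicate 1. Many low values lie near this level, and its part in differences near or below 1 RPKM was not tested. The labels do not say that the 3 libraries of a group are separate cultures. The p-values rest on the spread within the 8 groups of all 24 libraries, not on these 6 alone, and that spread may be technical.

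A gene is said to rise, fall or be called where the adjusted p of limma across all 21097 tested genes was below 0.05. A log2 difference is the adipogenic day 7 mean minus the osteogenic day 15 mean of log2(RPKM + 1), which understates changes of low genes. At this threshold 8106 genes (38.4%) were called, 2554 of them higher in adipogenic libraries (12.1% of those tested) and 5552 lower (26.3%). Without osteogenic replicate 1, 2364 were higher and 5232 lower. By at least 1 on the log2 scale, 1281 genes were higher (6.07%) and 2216 lower (10.5%). Higher genes made up 31.5% of calls, but 46.4% when libraries were rescaled by their median ratio and 41.2% after quantile normalization. The median difference of all genes was 0.01, and median-ratio rescaling moved it up by 0.11. Many of the genes tested pass the filter on low values through other groups only. Of the 12863 genes that reach 1 RPKM in at least 3 of the 6 libraries compared, 20.7% were called higher and 44.5% lower, with a median difference of -0.25. A count within a gene group is to be read against both pairs of shares.

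Among the 14 largest rises were Fabp4, Scd1, Adipoq and Cd36. Fabp4, the cytosolic fatty acid carrier of adipocytes, had 23560.5, 21905 and 22113 RPKM in adipogenic libraries, against 5.13, 5.599 and 6.66 RPKM in osteogenic day 15 libraries. It took 3.96 to 4.17% of the summed RPKM of an adipogenic library, against 0.0008 to 0.001% of an osteogenic one, and its log2 difference was 11.70 ± 0.18 (SE). Scd1, which desaturates stearate to oleate, had 9609.7, 9904 and 9176 RPKM in adipogenic libraries, against 40.03, 41.96 and 43.9 RPKM in osteogenic libraries, a log2 difference of 7.80. Both genes were thus detected in osteogenic libraries, far below every adipogenic value. More adipocytes and more of such RNA per cell cannot be told apart in bulk RNA, here or for any gene below. Adipoq, which encodes the hormone adiponectin, had 3235, 2886 and 2974 RPKM in adipogenic libraries, against 0.662, 1.05 and 0.973 RPKM in osteogenic libraries. Cd36, a fatty acid transporter of the cell surface, had 1392, 1264 and 1413 RPKM in adipogenic libraries, against 0.117, 0.153 and 0.201 RPKM in osteogenic libraries. In osteogenic libraries Adipoq thus lay near 1 RPKM and Cd36 below the receptor median. Also among the 14 largest rises were Cidec, Cfd, Sptlc3 (a subunit of serine palmitoyltransferase), Gpd1, G0s2, Agt, Plin1, Aldh1a7, Acsl1 and Sult1a1. Their log2 differences lay between 6.59 (Sult1a1, a sulfotransferase) and 10.85 (Cidec), and the highest adjusted p among the 14 was that of G0s2, 3.74e-11 (limma). Aldh1a7 has a close paralog, Aldh1a1, and how reads were shared between them is not given in the sources used here.

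**Figure D1:**
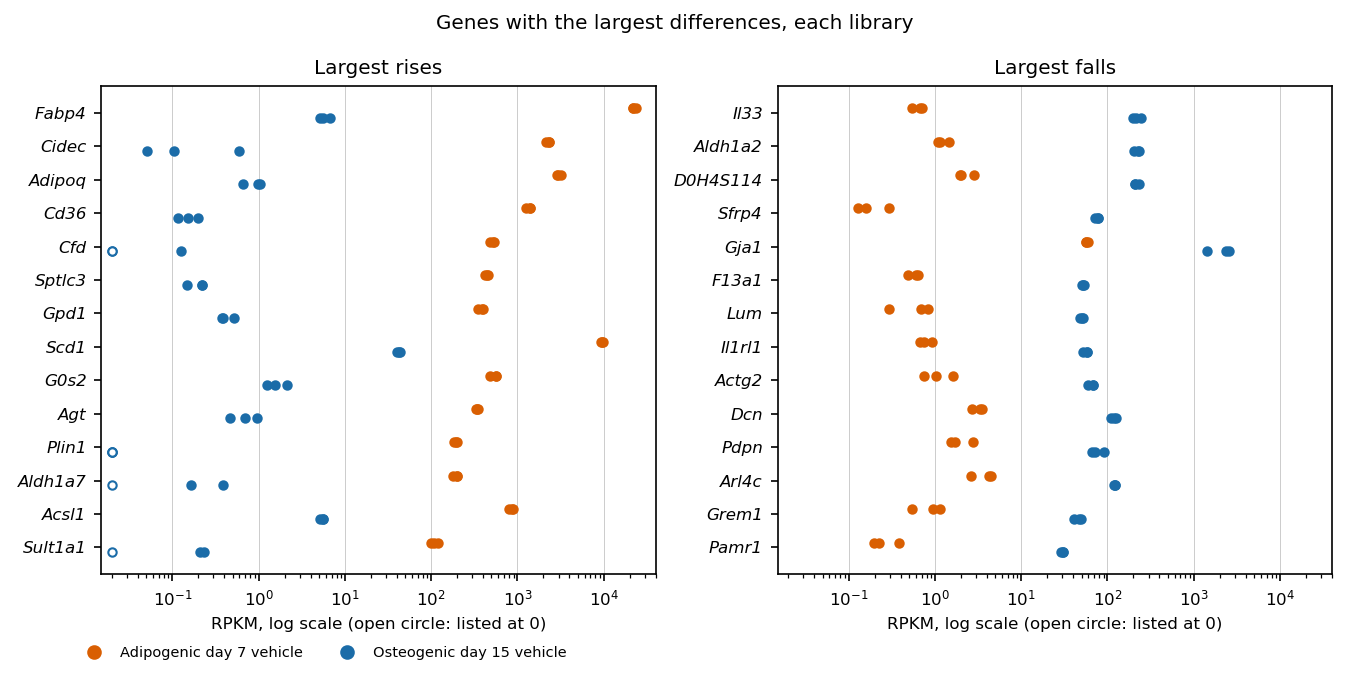
RPKM of each library on a log axis for the 14 largest rises (left) and the 14 largest falls (right), with adipogenic day 7 vehicle in orange above osteogenic day 15 vehicle in blue and open circles for values listed at 0. In each of the 28 genes the 3 adipogenic values lie apart from the 3 osteogenic values, which the rule for naming them required.

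Of 14 tested genes of the droplet coat and of lipolysis, 12 rose and 1 fell, with a median log2 difference of 4.06 beside 0.01 over all genes. Plin1 (perilipin 1), which coats large droplets and gates lipolysis, had 199, 183 and 192 RPKM in adipogenic libraries and was listed at 0 in the 3 osteogenic libraries. Cidec, which fuses small droplets into large ones, had 2321, 2154 and 2305 RPKM in adipogenic libraries, against 0.59, 0.051 and 0.106 RPKM in osteogenic libraries. Plin1 and Cidec therefore separated the groups almost as presence from absence. G0s2, an inhibitor of adipose triglyceride lipase, had 561, 487 and 562 RPKM in adipogenic libraries, against 1.26, 2.15 and 1.55 RPKM in osteogenic libraries. The lipases rose too, Pnpla2 (adipose triglyceride lipase) by 5.27, Lipe (hormone-sensitive lipase) by 6.29 and Mgll (monoglyceride lipase) by 4.03 on the log2 scale. Perilipins known from many tissues moved less. Plin2 averaged 1170.4 ± 43.5 RPKM in adipogenic libraries and 135 ± 9.74 RPKM in osteogenic libraries (SD, n = 3 each). Plin3 averaged 65.8 ± 4.53 RPKM in adipogenic and 72.97 ± 4.402 RPKM in osteogenic libraries and was not called. The gene that fell is 2310016C08Rik (Hilpda), a hypoxia-inducible droplet protein, with a log2 difference of -0.51. It was not called lower after median-ratio rescaling (-0.30) or quantile normalization, with the largest transcript or in VD3-treated libraries.

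The promoters of Plin1, Cidec and Adipoq are shown as examples from the 14 largest rises whose windows hold a motif marked below. These genes were above 100 RPKM in adipogenic libraries. Plin1 and Cidec were close to absent from osteogenic libraries, and Adipoq was low there. Other rises with such levels, Cd36 among them, are not shown. Each window holds 250 bases before and 50 after the gene's start in RefSeq (GRCm38.p6), read 5′ to 3′ on the gene's strand. Of the 14 largest rises, 11 matched an entry of that table by symbol. Capitals in the first pair mark TTGCNNAA on either strand, a palindromic core that C/EBP proteins bind, and in the last one CCAAT on either strand (ATTGG on the strand shown), the motif of the factor NF-Y.
Plin1 (chr7:79732727-79733026, minus strand): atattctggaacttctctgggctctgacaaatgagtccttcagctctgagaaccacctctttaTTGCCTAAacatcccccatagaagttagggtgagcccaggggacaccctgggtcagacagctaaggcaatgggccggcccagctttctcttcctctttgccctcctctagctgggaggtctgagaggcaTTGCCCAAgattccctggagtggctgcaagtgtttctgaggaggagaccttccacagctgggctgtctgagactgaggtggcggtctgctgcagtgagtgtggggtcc
Cidec (chr6:113434715-113435014, minus strand): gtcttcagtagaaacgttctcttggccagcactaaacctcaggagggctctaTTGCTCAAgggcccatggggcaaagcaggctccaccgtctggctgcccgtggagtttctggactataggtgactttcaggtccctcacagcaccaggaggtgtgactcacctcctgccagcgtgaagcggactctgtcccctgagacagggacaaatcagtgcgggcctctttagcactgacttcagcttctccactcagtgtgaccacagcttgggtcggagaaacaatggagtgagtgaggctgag
Adipoq (chr16:23146286-23146585, plus strand): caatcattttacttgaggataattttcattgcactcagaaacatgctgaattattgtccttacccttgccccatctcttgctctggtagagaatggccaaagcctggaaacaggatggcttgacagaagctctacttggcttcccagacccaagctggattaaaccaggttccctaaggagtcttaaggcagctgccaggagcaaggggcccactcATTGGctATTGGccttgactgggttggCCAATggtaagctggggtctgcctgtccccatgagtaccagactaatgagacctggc
TTGCNNAA was present in the windows of 3 of the 11 genes (Cidec, Sptlc3 and Plin1), against 12.2% of all 27025 windows. It was also in 2 of the 8 windows found for the 14 largest falls and in 2 of 15 windows of the lipid droplet list. CCAAT was present in 5 of the 11 and in 6 of the 8 windows of the falls, against 41.1% of all windows. DR1, the direct repeat of AGGTCA with 1 base between that PPAR gamma binds with its partner RXR, was in 0 of the 11 and in 0.0481% of all windows. A match describes these letters only, and binding was not measured.

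Uptake and synthesis of fat rose on most steps. Of 14 tested uptake and binding genes 10 rose and 3 fell, and of 22 synthesis genes 18 rose and 2 fell, with medians of 0.80 for uptake and 2.94 for synthesis. After background subtraction only 7 of the 14 uptake and binding genes rose and 3 fell. Lpl, lipoprotein lipase, which frees fatty acids from circulating triglyceride, had 1892, 2113 and 1793 RPKM in adipogenic libraries, against 26.2, 28.8 and 24.8 RPKM in osteogenic libraries. Acsl1, which couples long-chain fatty acids to coenzyme A, had 899.8, 808 and 859 RPKM in adipogenic libraries, against 5.17, 5.52 and 5.63 RPKM in osteogenic libraries. These ratios of means were 72.7 and 157. Other members of the same families went the other way. Fabp3, the carrier known from heart muscle, had 0.248, 0.251 and 1.55 RPKM in adipogenic libraries, against 14.5, 11.9 and 9.64 RPKM in osteogenic libraries, and Acsl4, which prefers arachidonate, averaged 32.4 ± 2.16 RPKM in adipogenic and 61.03 ± 2.76 RPKM in osteogenic libraries. Both fell, so not every carrier or ligase of fatty acids rose. Along the synthesis pathway, log2 differences were 0.75 for Acly (citrate to acetyl-CoA), 2.74 for Acaca (malonyl-CoA), 3.17 for Fasn (palmitate), 8.06 for Gpd1 (glycerol 3-phosphate), 5.57 for Agpat2 (phosphatidate) and 5.19 for Dgat2 (the last step to triglyceride). The elongases split. Elovl3 had 56.3, 57.7 and 52.1 RPKM in adipogenic libraries, against 0, 0.505 and 0.337 RPKM in osteogenic libraries, while Elovl5 fell by 1.14 and Elovl6 by 1.11 on the log2 scale. Elovl6 had 3.34, 3.56 and 3.46 RPKM in adipogenic libraries, against 7.48, 8.804 and 9.63 RPKM in osteogenic libraries, and was not called in the VD3-treated libraries described below (-0.02). Pck1, a glyceroneogenesis enzyme of mature fat, averaged 0.094 RPKM in adipogenic and 0.254 RPKM in osteogenic libraries and was not called.

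Of 13 adipokine genes 10 rose and 1 fell, Metrnl. Cfd (adipsin, complement factor D) had 538, 527 and 476 RPKM in adipogenic libraries, against 0, 0.125 and 0 RPKM in osteogenic libraries. Retn (resistin) had 108, 80.97 and 142 RPKM in adipogenic libraries, against 0, 0.513 and 0.101 RPKM in osteogenic libraries. Agt (angiotensinogen) had 343, 350.3 and 333 RPKM in adipogenic libraries, against 0.955, 0.469 and 0.688 RPKM in osteogenic libraries. None of the 3 reached 1 RPKM in an osteogenic library. Lep (leptin), the hormone of mature white fat, averaged 0.185 RPKM in adipogenic and 0.296 RPKM in osteogenic libraries and was not called. Of 8 tested complement genes, Cfd included, 5 rose and 1 fell, but 6 rose and 0 fell without osteogenic replicate 1 or after median-ratio rescaling. In VD3-treated libraries 3 rose and 1 fell, and of 5 tested after background subtraction 4 rose and 1 fell. C3, the central protein of the cascade, averaged 52.4 ± 2.45 RPKM in adipogenic libraries and 0.285 ± 0.189 RPKM in osteogenic libraries.

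Of 20 tested adipogenic transcription factors 12 rose and 2 fell, and of 16 tested after background subtraction 9 rose and 2 fell. Pparg had 119, 127 and 110.2 RPKM in adipogenic libraries, against 8.95, 6.46 and 7.82 RPKM in osteogenic libraries, a 15.4-fold ratio of means. Cebpa had 173, 143 and 156 RPKM in adipogenic libraries, against 6.07, 6.51 and 7.05 RPKM in osteogenic libraries, a 24.04-fold ratio. Nr1h3 (LXR alpha), an oxysterol receptor, had 99.4, 84.6 and 108 RPKM in adipogenic libraries, against 1.67, 3.97 and 3.55 RPKM in osteogenic libraries, and had the largest log2 difference of the list (4.64). The earlier C/EBP factors did not follow Cebpa. Cebpb had 40.6, 36.1 and 35.4 RPKM in adipogenic libraries, against 33.8, 30.6 and 36.3 RPKM in osteogenic libraries, with overlapping ranges, and was not called (log2 difference 0.15 ± 0.25 SE, adjusted p = 0.718, limma). Cebpd fell by 0.56 on the log2 scale but was not called after either rescaling (-0.34 median ratio, -0.28 quantile). Klf4, an early inducer of Cebpb in cell culture, averaged 8.09 ± 0.467 RPKM in adipogenic libraries and 18.6 ± 1.11 RPKM in osteogenic libraries and fell.

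Genes that answer to the agents of the medium were looked at as lists. Of 12 tested insulin and adrenergic signalling genes 9 rose and 2 fell. Slc2a4 (GLUT4), the glucose transporter that insulin brings to the surface, had 23.4, 21.6 and 23.5 RPKM in adipogenic libraries, against 0.033, 0.245 and 0.024 RPKM in osteogenic libraries. Insr, the insulin receptor, rose 4.95-fold, and Pde3b, a phosphodiesterase that insulin activates, 34.2-fold. Irs1, a substrate of the insulin receptor, fell, with 21.05, 24.6 and 22.1 RPKM in adipogenic libraries, against 111, 109.9 and 108 RPKM in osteogenic libraries. Of 17 glucocorticoid-responsive genes 13 rose and 3 fell, with a median of 1.60. Fkbp5, a chaperone of the glucocorticoid receptor, had 138, 132 and 148 RPKM in adipogenic libraries, against 2.099, 2.71 and 2.27 RPKM in osteogenic libraries. Lcn2 (lipocalin 2) had 59.5, 76.9 and 56.8 RPKM in adipogenic libraries, against 0, 0.169 and 0.186 RPKM in osteogenic libraries. Glul (glutamine synthetase) had 348, 318 and 368 RPKM in adipogenic libraries, against 7.103, 5.81 and 5.74 RPKM in osteogenic libraries. Hsd11b1, which regenerates active glucocorticoid, averaged 48.6 ± 4.37 RPKM in adipogenic libraries and 0.756 ± 0.204 RPKM in osteogenic libraries. Several of these genes are also adipocyte genes, and the part of dexamethasone in their levels was not tested. Errfi1 went the other way, with 43.8, 48.1 and 47.6 RPKM in adipogenic libraries, against 218, 148 and 161 RPKM in osteogenic libraries. Of 13 tested prostaglandin genes 4 rose and 5 fell, and their median of -0.04 changed sign to 0.02 after median-ratio rescaling. Ptgs2, the inducible cyclooxygenase that indomethacin inhibits, had 0.754, 1.21 and 1.11 RPKM in adipogenic libraries, against 6.82, 5.14 and 5.07 RPKM in osteogenic libraries.

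Genes of mitochondria and peroxisomes rose in nearly every member of 4 lists. Of 31 respiratory chain and ATP synthase genes 28 rose and 0 fell, with a median log2 difference of 1.33. Of 18 genes of pyruvate dehydrogenase and the citrate cycle 17 rose and 0 fell (median 1.42), of 23 tested genes of fatty acid oxidation and peroxisomes 22 and 0 (median 1.95), and of 15 genes of branched-chain amino acid breakdown 15 and 0 (median 1.86). The medians lay between 1.43 and 2.18 in the 4 lists after median-ratio rescaling, quantile normalization or background subtraction. Cycs (cytochrome c) had 491, 448 and 519 RPKM in adipogenic libraries, against 66.1, 62.2 and 60.05 RPKM in osteogenic libraries. Pcx (pyruvate carboxylase), which supplies oxaloacetate for citrate export, had 221, 214 and 198 RPKM in adipogenic libraries, against 3.39, 2.996 and 2.85 RPKM in osteogenic libraries. Aldh6a1, of valine breakdown, had 192, 202 and 173 RPKM in adipogenic libraries, against 8.53, 6.86 and 6.601 RPKM in osteogenic libraries. Each had the largest log2 difference of its list, 2.93 for Cycs, 5.70 for Pcx and 4.51 for Aldh6a1, and so had Cat (catalase, of peroxisomes) among the genes of oxidation and peroxisomes, 3.87. Pdha1, the catalytic subunit of pyruvate dehydrogenase, averaged 330.2 ± 3.08 RPKM in adipogenic libraries and 314 ± 6.02 RPKM in osteogenic libraries and was not called, and neither was Cpt1a, the gate of fatty acid entry into mitochondria (8.39 ± 0.818 RPKM in adipogenic and 8.701 ± 1.31 RPKM in osteogenic libraries). Of the 8 tested brown and beige fat genes 2 rose (Cidea and Elovl3), 1 fell (Dio2) and 5 were not called. Ucp1, the uncoupling protein of brown fat, averaged 0.333 RPKM in adipogenic and 0.206 RPKM in osteogenic libraries, at or below the receptor background.

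Among the 14 largest falls were Il33, Il1rl1, Aldh1a2 and Gja1. Il33, an alarmin cytokine, had 0.669, 0.536 and 0.705 RPKM in adipogenic libraries, against 244, 214 and 199.6 RPKM in osteogenic libraries, and its receptor Il1rl1 (ST2) had 0.915, 0.743 and 0.667 RPKM in adipogenic libraries, against 58.4, 51.6 and 58.03 RPKM in osteogenic libraries. Ligand and receptor were thus both low in adipogenic libraries and both high in osteogenic ones. Aldh1a2, which makes retinoic acid, had 1.45, 1.08 and 1.15 RPKM in adipogenic libraries, against 229.8, 223 and 204 RPKM in osteogenic libraries. Gja1 (connexin 43), the gap junction protein of osteoblasts and osteocytes, had 56.5, 55.7 and 59.4 RPKM in adipogenic libraries, against 1412, 2582 and 2393 RPKM in osteogenic libraries. Osteogenic replicate 1 of Gja1 stood below the other two but far above every adipogenic value. The others of the 14 were D0H4S114 (Nrep), Sfrp4, F13a1 (a transglutaminase subunit), Lum, Actg2, Dcn, Pdpn, Arl4c, Grem1 and Pamr1, with log2 differences between -6.06 (D0H4S114) and -4.61 (Pamr1). The highest adjusted p among the 14 falls was that of Lum, 8.61e-12 (limma).

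Of 18 bone matrix and mineralization genes 14 fell and 2 rose, with a median of -1.83. Ibsp (bone sialoprotein) had 97.5, 102 and 113 RPKM in adipogenic libraries, against 555, 635 and 599.7 RPKM in osteogenic libraries. Spp1 (osteopontin) had 121, 138 and 142 RPKM in adipogenic libraries, against 872, 837 and 852 RPKM in osteogenic libraries. Both were thus well above background in adipogenic libraries while lower by ratios of 5.72 and 6.38, osteogenic over adipogenic. Dmp1, a matrix phosphoprotein of osteocytes, had 2.11, 1.397 and 1.95 RPKM in adipogenic libraries, against 36.1, 47.2 and 39.98 RPKM in osteogenic libraries. Enpp1, which makes the mineralization inhibitor pyrophosphate, had 0.688, 0.822 and 0.805 RPKM in adipogenic libraries, against 30.1, 24.1 and 23.6 RPKM in osteogenic libraries. Osteocalcin is encoded by near-identical copies, so the split of reads between them is uncertain: Bglap averaged 1.63 ± 0.177 RPKM in adipogenic and 20.02 ± 2.54 RPKM in osteogenic libraries, and Bglap2 2.14 ± 0.977 RPKM in adipogenic and 14.5 ± 3.54 RPKM in osteogenic libraries. Alpl, the tissue-nonspecific alkaline phosphatase used as an early osteoblast stain, had the smallest log2 difference of 8 osteoblast markers, with 14.4, 18.02 and 19.4 RPKM in adipogenic libraries, against 31.4, 20.4 and 22.3 RPKM in osteogenic libraries. Its log2 difference of -0.48 (adjusted p = 0.0169, limma) was not called without osteogenic replicate 1 (-0.30), without adipogenic replicate 1 (-0.36) or after median-ratio rescaling (-0.25). After quantile normalization and after background subtraction, too, 7 of the 8 markers fell. The members that rose were Phospho1, a matrix vesicle phosphatase (2.65 ± 0.793 RPKM in adipogenic and 0.802 ± 0.709 RPKM in osteogenic libraries), and Omd (osteomodulin), with 80.2, 84.3 and 84.98 RPKM in adipogenic libraries, against 19.3, 15.6 and 13.9 RPKM in osteogenic libraries.

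Of 13 tested osteoblast transcription factors 9 fell and 2 rose. Runx2 had 2.33, 2.98 and 1.84 RPKM in adipogenic libraries, against 7.52, 5.78 and 5.53 RPKM in osteogenic libraries. Sp7 had 2.32, 1.88 and 2.59 RPKM in adipogenic libraries, against 6.21, 4.88 and 5.64 RPKM in osteogenic libraries. Both fell by a smaller ratio (2.63 and 2.46, osteogenic over adipogenic) than Mef2c (3.77) and Fosl2 (4.82). Twist2 averaged 2.503 ± 0.729 RPKM in adipogenic and 0.607 ± 0.527 RPKM in osteogenic libraries and rose. Fosl1 averaged 3.84 ± 0.456 RPKM in adipogenic and 1.65 ± 0.731 RPKM in osteogenic libraries, and rose. Its rise was not called after quantile normalization, with a pseudocount of 0.1, after background subtraction or in VD3-treated libraries. Nor was it called without osteogenic replicate 2 or 3 or without adipogenic replicate 1 or 2. Of 6 tested osteocyte genes 5 fell (Dmp1, Phex, Pdpn, Gja1 and Cd44), with a median of -3.10. Sost and Fgf23, which mark late osteocytes, were under 1 RPKM in each of the 6 libraries and did not pass the filter on low values. Of 3 cytokines that direct osteoclasts 2 fell. Tnfrsf11b (osteoprotegerin), the decoy receptor of RANKL, had 2.87, 3.15 and 2.68 RPKM in adipogenic libraries, against 25.3, 25.7 and 25.7 RPKM in osteogenic libraries. Tnfsf11 (RANKL) had 0.284, 0.072 and 0.154 RPKM in adipogenic libraries, against 1.02, 0.618 and 0.637 RPKM in osteogenic libraries, and was not called (adjusted p = 0.0576, limma). It was called lower with a pseudocount of 0.1, after quantile normalization and with plain empirical Bayes. Of 13 tested stromal and progenitor markers 7 fell and 2 rose, Kitl (stem cell factor) and Mcam. Kitl had 108, 117 and 113 RPKM in adipogenic libraries, against 12.9, 13.8 and 14.4 RPKM in osteogenic libraries, and Pdgfra, a receptor of stromal progenitors, had 8.34, 8.83 and 7.93 RPKM in adipogenic libraries, against 70.9, 73.04 and 77.1 RPKM in osteogenic libraries.

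**Figure D2:**
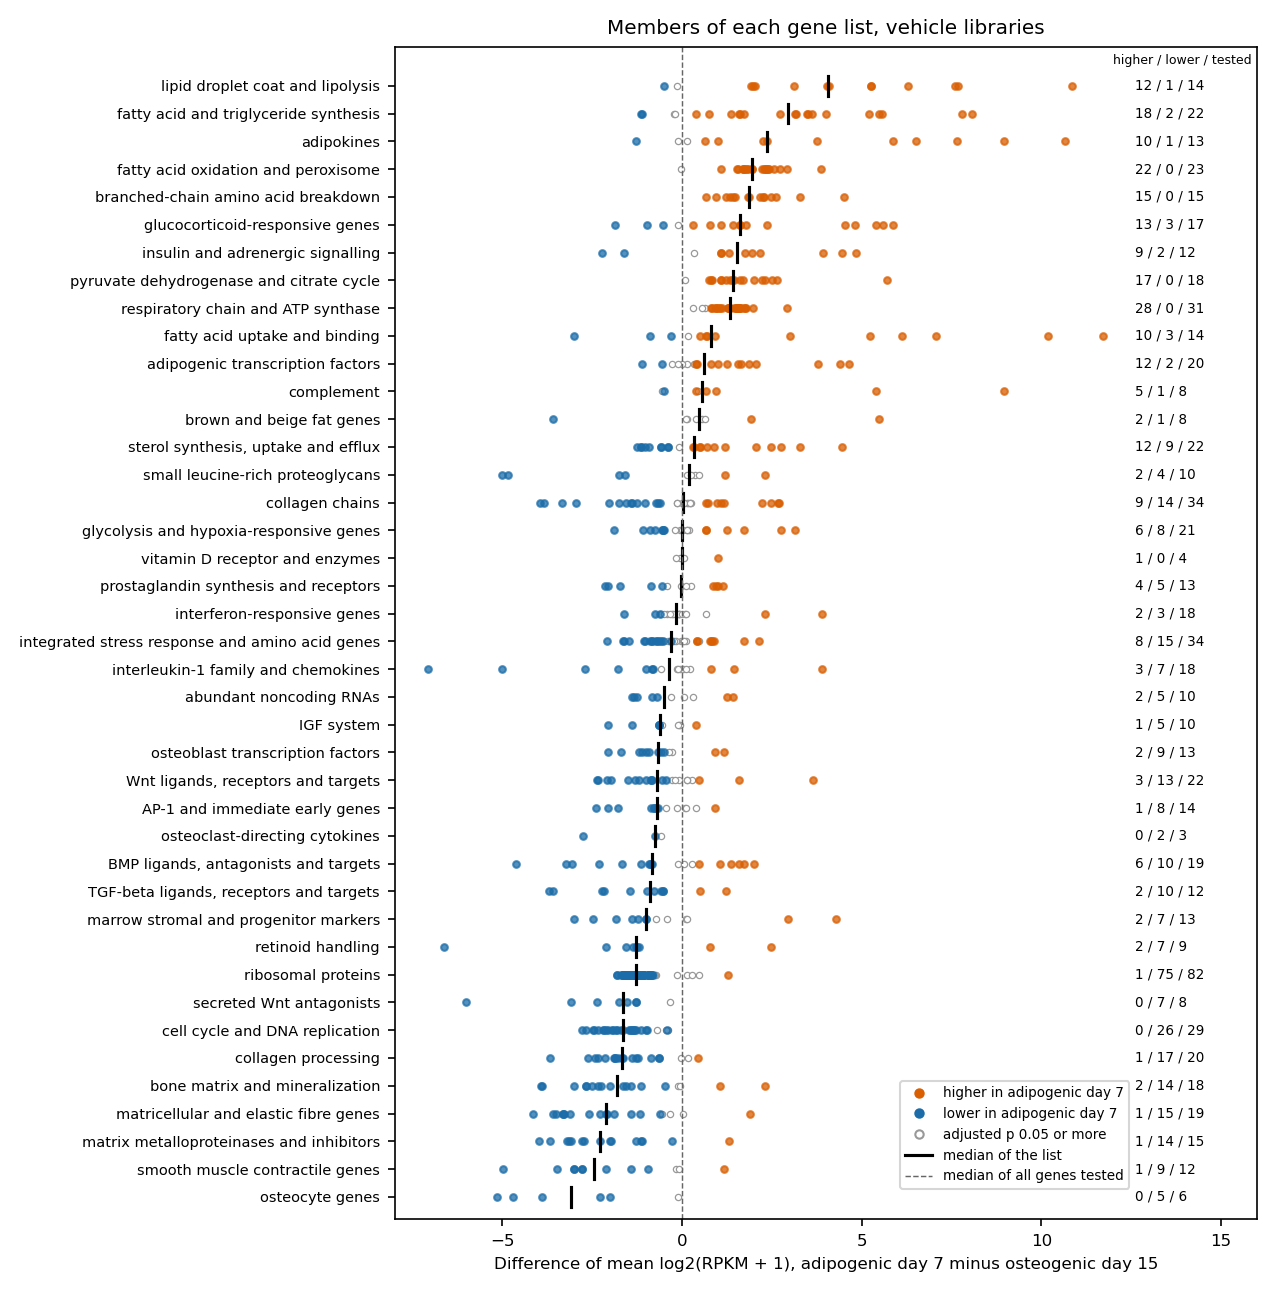
Each point is a tested member of a gene list, placed by its difference of mean log2(RPKM + 1) between adipogenic day 7 and osteogenic day 15 vehicle libraries (3 each); orange points were called higher, blue points lower, open points neither, and black bars mark list medians. Lists of lipid and mitochondrial genes lie right of the median of all genes (dashed), and matrix, cell cycle and osteocyte lists lie left of it, from a median of 4.06 down to -3.10.

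Collagens split by type. Of 34 tested chains 9 rose and 14 fell, and the counts were the same after median-ratio rescaling and after quantile normalization. The most abundant fibrillar chains fell. Col1a1, the main chain of bone collagen, had 7.95, 12.03 and 8.52 RPKM in adipogenic libraries, against 101, 97.98 and 114 RPKM in osteogenic libraries. Col3a1 had 33.6, 33.7 and 33.4 RPKM in adipogenic libraries, against 486, 514 and 492 RPKM in osteogenic libraries. The ratios, osteogenic over adipogenic, were 10.96 for Col1a1, 7.79 for Col1a2, 14.8 for Col3a1 and 17.2 for the network chain Col8a1. Chains of the basement membrane and of beaded filaments rose. Col4a1 had 156, 143 and 156 RPKM in adipogenic libraries, against 24.2, 21.5 and 21.9 RPKM in osteogenic libraries, and its partner Col4a2 had 115, 116 and 116 RPKM in adipogenic libraries, against 16.7, 18.1 and 17.03 RPKM in osteogenic libraries. The pair kept nearly the same ratio of means between groups, 6.72 and 6.6996. Col6a1, Col6a2 and Col6a3, which assemble into collagen VI, rose by 1.09, 1.18 and 2.22 on the log2 scale, and Col15a1 and Col18a1, both of basement membrane zones, by 2.49 and 0.97. The remaining chains that rose were Col5a3, a minor fibrillar chain (0.72), and Col2a1. Col2a1 was at 1.07, 0.831 and 0.817 RPKM in adipogenic libraries, against 0.131, 0.297 and 0.15 RPKM in osteogenic libraries, close to the receptor background of each group.

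**Figure D3:**
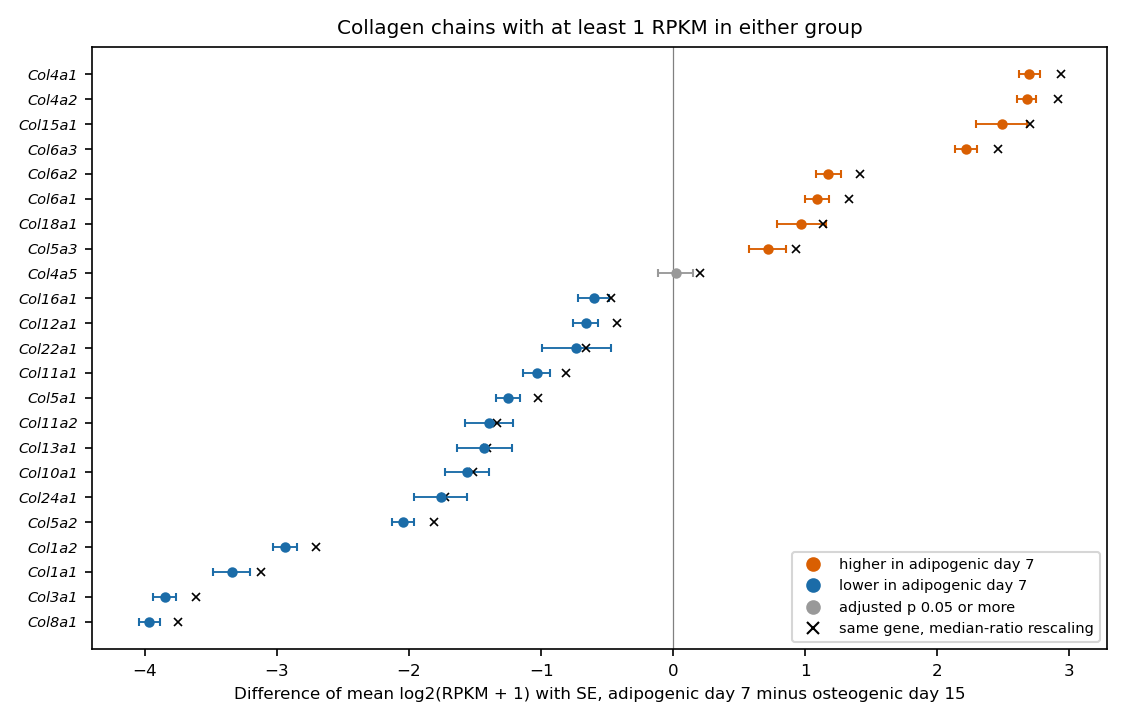
Log2 differences (points, with SE) of 23 collagen chains with a mean of at least 1 RPKM in either group, adipogenic day 7 minus osteogenic day 15 vehicle, and the same values after median-ratio rescaling (crosses). Collagen IV, VI, XV and XVIII chains lie right of 0 and collagen I, III, V (Col5a1, Col5a2) and VIII chains left of it under both scalings.

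Col4a1 and Col4a2 lie on opposite strands, and their windows are shown because the genes rose together. Their RefSeq starts (GRCm38.p6) are 21 bases apart, each inside the other transcript as annotated, and the windows overlap by 78 bases, printed in capitals and read from each gene's own strand.
Col4a1 (chr8:11312777-11313076, minus strand): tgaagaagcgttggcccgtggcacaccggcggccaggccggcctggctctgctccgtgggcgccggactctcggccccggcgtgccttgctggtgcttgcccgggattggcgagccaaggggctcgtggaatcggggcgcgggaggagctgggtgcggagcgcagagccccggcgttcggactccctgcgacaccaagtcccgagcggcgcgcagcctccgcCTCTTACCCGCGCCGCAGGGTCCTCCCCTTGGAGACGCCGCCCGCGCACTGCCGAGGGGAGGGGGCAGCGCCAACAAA
Col4a2 (chr8:11312555-11312854, plus strand): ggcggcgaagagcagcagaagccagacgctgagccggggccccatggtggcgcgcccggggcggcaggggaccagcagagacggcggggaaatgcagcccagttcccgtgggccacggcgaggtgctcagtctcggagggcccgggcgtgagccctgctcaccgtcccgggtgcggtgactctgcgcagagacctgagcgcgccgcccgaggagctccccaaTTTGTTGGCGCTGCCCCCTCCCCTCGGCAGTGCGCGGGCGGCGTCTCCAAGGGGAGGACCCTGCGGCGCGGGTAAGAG

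Genes that modify and cross-link collagen fell with the fibrillar chains, 17 of 20 lower and 1 higher, with a median of -1.66. Loxl3, a lysyl oxidase relative, had 4.197, 3.64 and 4.82 RPKM in adipogenic libraries, against 71.5, 62.9 and 61.2 RPKM in osteogenic libraries. Plod2, which hydroxylates lysines of the collagen telopeptide, fell by 2.33, the collagen chaperone Serpinh1 by 1.39 and P4ha1, a prolyl hydroxylase subunit that uses ascorbate, by 1.68 on the log2 scale. The member that rose, Plod1 (10.1 ± 1.09 RPKM in adipogenic and 7.27 ± 1.18 RPKM in osteogenic libraries), was not called higher without osteogenic replicate 1 (0.32) or after background subtraction. Of 19 tested matricellular and elastic fibre genes 15 fell and 1 rose, Smoc1, with a median of -2.11. Fbn1 (fibrillin 1), of microfibrils, had 4.61, 4.89 and 5.45 RPKM in adipogenic libraries, against 109.6, 104 and 103 RPKM in osteogenic libraries. Fn1 (fibronectin) had 21.5, 36.7 and 20.2 RPKM in adipogenic libraries, against 265, 262 and 251 RPKM in osteogenic libraries, with adipogenic replicate 2 above the other two. Ctgf, a target of TGF-beta and of YAP, had 14.1, 15.1 and 16.4 RPKM in adipogenic libraries, against 179.6, 207 and 192 RPKM in osteogenic libraries. Of 15 tested matrix metalloproteinases, relatives and inhibitors 14 fell and 1 rose, Timp4. Proteases and inhibitors fell together: Mmp14, a membrane-bound collagenase, averaged 13.8 ± 0.78 RPKM in adipogenic libraries and 189.5 ± 14.7 RPKM in osteogenic libraries, and the inhibitor Timp1 averaged 2.39 ± 0.511 RPKM in adipogenic libraries and 53.1 ± 13.4 RPKM in osteogenic libraries. Among 10 tested small leucine-rich proteoglycans, Dcn (decorin) had 3.34, 3.49 and 2.69 RPKM in adipogenic libraries, against 126, 119 and 111 RPKM in osteogenic libraries, and Lum (lumican) had 0.821, 0.29 and 0.699 RPKM in adipogenic libraries, against 47.5, 52.4 and 50.5 RPKM in osteogenic libraries. In that list 4 fell and 2 rose, and its median of 0.19 changed sign to -0.73 when the receptor background was subtracted.

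Among signals that steer stromal fate, secreted Wnt antagonists and TGF-beta genes were mostly lower, and BMP and IGF genes were less uniform. Of all genes tested 26.3% were called lower, and 44.5% of those filtered on the libraries compared. Of 8 tested secreted Wnt antagonists 7 fell and 0 rose. Sfrp4, a decoy that binds Wnt proteins, had 0.293, 0.16 and 0.13 RPKM in adipogenic libraries, against 77.6, 78.7 and 72.3 RPKM in osteogenic libraries, and Frzb had 0.868, 1.17 and 1.62 RPKM in adipogenic libraries, against 20.04, 15.8 and 17.2 RPKM in osteogenic libraries. Of 22 tested Wnt ligands, receptors and targets 13 fell and 3 rose. The receptors diverged, Fzd4 with 24.5, 31.98 and 23.1 RPKM in adipogenic libraries, against 1.28, 1.23 and 1.09 RPKM in osteogenic libraries, and Fzd1 with 12.3, 11.9 and 11.2 RPKM in adipogenic libraries, against 52.1, 47.9 and 47.7 RPKM in osteogenic libraries. Axin2, a feedback target of Wnt signalling, averaged 0.301 ± 0.255 RPKM in adipogenic libraries and 1.35 ± 0.0593 RPKM in osteogenic libraries and fell. Of 19 tested BMP genes 10 fell and 6 rose. Their median of -0.84 was -0.06 without a filter and -0.09 in VD3-treated libraries. Bmp2, an inducer of bone, had 0.378, 0.287 and 0.44 RPKM in adipogenic libraries, against 13.03, 11.2 and 11.5 RPKM in osteogenic libraries, and its antagonist Grem1 fell with it, at 1.14, 0.539 and 0.954 RPKM in adipogenic libraries, against 48.7, 40.8 and 46.3 RPKM in osteogenic libraries. Other antagonists rose, Fst by 1.73 and Chrdl1 by 1.59, as did the target gene Id1 by 1.37 on the log2 scale. Of 12 tested TGF-beta genes 10 fell and 2 rose, but 10 and 1 after background subtraction. Tgfb2 had 3.12, 4.12 and 3.42 RPKM in adipogenic libraries, against 51.3, 54.7 and 54.2 RPKM in osteogenic libraries, and the activin subunit Inhba had 2.69, 2.18 and 2.67 RPKM in adipogenic libraries, against 40.2, 52.5 and 41.8 RPKM in osteogenic libraries. Ltbp3, a latent TGF-beta binding protein among the members that rose, was not called without osteogenic replicate 1 (0.42) or adipogenic replicate 2 (0.39). Of 10 tested genes of the IGF system 5 fell and 1 rose, but 3 fell after median-ratio rescaling or without adipogenic replicate 3, and Igfbp3, a carrier of IGF, fell by 2.05 on the log2 scale.

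Contractile genes fell with the matrix. Of 12 genes known from smooth muscle 9 fell and 1 rose, Myh11. No member rose after background subtraction or with the largest transcript (10 tested in each), or at a filter of 5 RPKM (9 tested). Acta2 (smooth muscle actin) averaged 84.2 ± 4.24 RPKM in adipogenic libraries and 591 ± 28.9 RPKM in osteogenic libraries, and Tagln (transgelin) 9.12 ± 1.04 RPKM in adipogenic libraries and 112 ± 11.2 RPKM in osteogenic libraries. Myocd, the defining coactivator of smooth muscle, was at 0.169 RPKM in adipogenic and 0.243 RPKM in osteogenic libraries.

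Proliferation genes were lower at adipogenic day 7. Of 29 genes of the cell cycle and DNA replication 26 fell and 0 rose, with a median of -1.65, and in each of the 29 the adipogenic values lay below the osteogenic ones, against 31.3% of all tested genes. Top2a, the topoisomerase of dividing cells, had 3.895, 3.98 and 4.44 RPKM in adipogenic libraries, against 37.2, 28.9 and 28.6 RPKM in osteogenic libraries. Ccnb1 (cyclin B1) had 3.28, 2.43 and 3.69 RPKM in adipogenic libraries, against 24.2, 20.3 and 21.3 RPKM in osteogenic libraries. Mitotic genes and replication genes were alike in this, with log2 differences of -2.79 for Cdc20, which activates the anaphase-promoting complex, and -2.12 for Mcm5, a subunit of the replicative helicase.

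Stretches of 60 bases from the windows of Cdc20, Top2a and Ccnb1 are shown because CCAAT, in capitals on either strand, was frequent in this list, in 18 of the 24 genes with a window against 41.1% of all windows.
Cdc20 (chr4:118437320-118437379, minus strand): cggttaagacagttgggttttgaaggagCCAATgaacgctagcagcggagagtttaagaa
Top2a (chr11:99024216-99024275, minus strand): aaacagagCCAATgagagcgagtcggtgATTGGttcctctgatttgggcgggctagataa
Ccnb1 (chr13:100786522-100786581, minus strand): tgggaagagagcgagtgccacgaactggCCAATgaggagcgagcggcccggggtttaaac
TTTGAA, the core of the cell cycle homology region bound by the DREAM complex, was in 10 of the 24, against 20.2% of all windows. No motif overlapped another in the sequences printed.

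Ribosomal protein genes were lower almost throughout. Of 82 tested 75 fell and 1 rose (Rpl39l, a copy known mainly from testis), with a median of -1.29 that was -1.06 after median-ratio rescaling and -1.03 after quantile normalization. Rps23 had 585, 489 and 563 RPKM in adipogenic libraries, against 1949, 1889 and 1859 RPKM in osteogenic libraries. Rps4x averaged 118 ± 10.9 RPKM in adipogenic libraries and 416 ± 56.4 RPKM in osteogenic libraries. Many of these genes have processed pseudogenes of near-identical sequence, so single values are uncertain. Of 10 tested noncoding RNAs 2 rose and 5 fell, but 2 and 3 after median-ratio rescaling. Malat1, of nuclear speckles, had 9993, 9701 and 9929 RPKM in adipogenic libraries, against 3357, 4722 and 4515 RPKM in osteogenic libraries, and Neat1, of paraspeckles, had 169, 243 and 204 RPKM in adipogenic libraries, against 66.3, 92.7 and 71.4 RPKM in osteogenic libraries. Gas5, which shares with ribosomal protein genes a 5′ terminal oligopyrimidine start, had 65.8, 61.8 and 70.7 RPKM in adipogenic libraries, against 172, 181 and 156 RPKM in osteogenic libraries. Rn7sk, the most abundant gene of each library, took 11.6 to 16.8% of summed RPKM in adipogenic libraries, against 18.9 to 24.9% in osteogenic ones. Its log2 difference was -0.83. Quantile normalization gives the top gene of every library the same value, so the 0.00 found after it was fixed in advance. The part of Rn7sk in the levels of other genes was not tested.

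The integrated stress response, in which Atf4 and its partners turn on amino acid genes, did not move one way. Of 34 tested genes 8 rose and 15 fell, but 9 and 12 after median-ratio rescaling. Atf3 had 51.2, 57.96 and 44.7 RPKM in adipogenic libraries, against 13.4, 10.4 and 9.102 RPKM in osteogenic libraries. Nupr1 had 43.3, 55.2 and 43.8 RPKM in adipogenic libraries, against 133, 131 and 134 RPKM in osteogenic libraries. Aars (alanyl-tRNA synthetase) had 61.3, 58.9 and 62.6 RPKM in adipogenic libraries, against 119.8, 132 and 131 RPKM in osteogenic libraries. Atf3 thus rose while both others fell, and Atf4 itself averaged 199.8 ± 8.12 RPKM in adipogenic libraries and 302 ± 27.4 RPKM in osteogenic libraries. The genes share TGATGNAA, the C/EBP-ATF response element, printed in capitals (as its reverse complement) in 60 bases of each window.
Atf3 (chr1:191183410-191183469, minus strand): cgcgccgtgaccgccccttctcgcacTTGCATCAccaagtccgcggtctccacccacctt
Nupr1 (chr7:126625547-126625606, minus strand): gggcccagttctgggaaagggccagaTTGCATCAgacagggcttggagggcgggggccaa
Aars (chr8:111033825-111033884, plus strand): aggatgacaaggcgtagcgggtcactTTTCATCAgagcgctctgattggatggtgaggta
It was in 10 of the 27 genes of the list with a window, against 4.51% of all windows. Of these 10, Trib3, Atf3 and Fgf21 rose, Asns, Nupr1, Aars and Gars fell and Chac1, Pycr1 and Slc7a11 were not called; Asns and Gars were not called after median-ratio rescaling. AP-1 genes were mostly lower, 8 of 14 tested falling and 1 rising (Fosl1, not called under the settings given above), with Junb at 2.21, 2.31 and 2.19 RPKM in adipogenic libraries, against 16.003, 13.99 and 18.3 RPKM in osteogenic libraries.

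Sterol genes did not move one way. Of 22 tested 12 rose and 9 fell, but 12 and 5 after median-ratio rescaling and 12 and 6 after quantile normalization. Efflux transporters rose, Abca1 with 42.6, 44.2 and 38.8 RPKM in adipogenic libraries, against 6.01, 4.92 and 5.23 RPKM in osteogenic libraries, and Abcg1 with 26.6, 24.3 and 23.5 RPKM in adipogenic libraries, against 0.086, 0.198 and 0.276 RPKM in osteogenic libraries. Insig1, which holds SREBP in the endoplasmic reticulum, had 671, 564 and 651 RPKM in adipogenic libraries, against 66.7, 55.5 and 67.8 RPKM in osteogenic libraries. Among enzymes of synthesis, Sqle (squalene epoxidase) fell, with a mean of 14.2 ± 0.323 RPKM in adipogenic libraries and 32.6 ± 3.33 RPKM in osteogenic libraries. Later enzymes split, since Cyp51 rose by 2.04 and Hsd17b7 fell by 1.14 on the log2 scale.

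Of 21 tested glycolysis and hypoxia genes 6 rose and 8 fell, but 7 and 5 after median-ratio rescaling. Bnip3, a mitophagy receptor, had 175, 177 and 163 RPKM in adipogenic libraries, against 22.7, 17.3 and 16.5 RPKM in osteogenic libraries, whereas Ndrg1, also induced by hypoxia, had 5.06, 6.14 and 5.89 RPKM in adipogenic libraries, against 24.05, 22.8 and 24.8 RPKM in osteogenic libraries. Hexokinases diverged, Hk2 rising 2.44-fold and Hk1 falling to 16.8 ± 1.56 RPKM in adipogenic libraries, against 31.9 ± 1.08 RPKM in osteogenic libraries. Of 18 tested interleukin-1 family and chemokine genes 3 rose and 7 fell. Ccl9, a chemokine, had 34.6, 30.3 and 30.4 RPKM in adipogenic libraries, against 1.29, 1.195 and 1.07 RPKM in osteogenic libraries, while Cxcl12, the niche chemokine of marrow stroma, averaged 55.8 ± 7.604 RPKM in adipogenic libraries and 113 ± 4.46 RPKM in osteogenic libraries. Of 18 interferon-responsive genes 2 rose and 3 fell, but 3 and 1 after median-ratio rescaling and 2 and 1 without osteogenic replicate 2 or adipogenic replicate 1, and the rises included Ifi27l2a by 3.90 on the log2 scale. Of 9 tested retinoid genes 7 fell and 2 rose. The retinal dehydrogenases took opposite directions, Aldh1a2 falling as above and Aldh1a1 averaging 5.91 ± 1.69 RPKM in adipogenic libraries and 0.233 ± 0.103 RPKM in osteogenic libraries, and Rarb, both receptor and target of retinoic acid, fell to 1.45 ± 0.386 RPKM in adipogenic libraries, against 9.65 ± 1.13 RPKM in osteogenic libraries. Of 4 vitamin D genes 1 rose, Rxra, a partner of many nuclear receptors. Vdr, the vitamin D receptor, had 0.719, 0.821 and 0.797 RPKM in adipogenic libraries, against 0.843, 0.832 and 0.914 RPKM in osteogenic libraries, and was not called (adjusted p = 0.829, limma).

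Levels at day 0 and at osteogenic day 7 are given as context for the ends of the contrast and were not tested. Day 0 libraries had receptor medians of 3.52 to 4.95 RPKM, well above those of both groups, so day 0 levels near or under 5 RPKM say little. Pparg averaged 119 ± 8.53 RPKM at adipogenic day 7, and 31.97 ± 2.74, 19.1 ± 3.08 and 7.74 ± 1.25 RPKM at day 0 and osteogenic days 7 and 15 (SD, n = 3 each). Cebpa averaged 157 ± 14.96 RPKM at adipogenic day 7, and 72.4 ± 11.7, 20.7 ± 4.59 and 6.54 ± 0.492 RPKM in the same order. For both genes the osteogenic day 15 libraries were the lowest of the 4 groups, and the day 0 mean lay between theirs and the adipogenic mean. Ibsp averaged 104 ± 7.89 RPKM at adipogenic day 7, and 9.55 ± 0.514, 264 ± 11.9 and 596 ± 40.1 RPKM at day 0 and osteogenic days 7 and 15. The adipogenic libraries thus lay above day 0 and below both osteogenic groups. Mgp (matrix Gla protein), an inhibitor of mineralization, averaged 13.8 ± 3.38 RPKM at adipogenic day 7, and 459 ± 20.3, 299 ± 38.9 and 91.9 ± 3.84 RPKM in the same order, highest at day 0. Spp1 likewise averaged 134 ± 11.3 RPKM at adipogenic day 7, and 1971 ± 136, 1655 ± 292 and 854 ± 17.3 RPKM at day 0 and osteogenic days 7 and 15, also highest at day 0. Dmp1 averaged 1.82 ± 0.374 RPKM at adipogenic day 7, and 1.59 ± 0.397, 178 ± 10.001 and 41.1 ± 5.64 RPKM in the same order, highest at osteogenic day 7 and within the background at day 0. Runx2 averaged 2.38 ± 0.569 RPKM at adipogenic day 7, and 5.72 ± 1.26, 7.62 ± 0.101 and 6.28 ± 1.08 RPKM at day 0 and osteogenic days 7 and 15, with day 0 near the background and the adipogenic libraries below both osteogenic groups. Omd averaged 83.1 ± 2.59 RPKM at adipogenic day 7, and 64.3 ± 4.099, 50.3 ± 10.7 and 16.3 ± 2.75 RPKM at day 0 and osteogenic days 7 and 15, again lowest at osteogenic day 15.

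**Figure D4:**
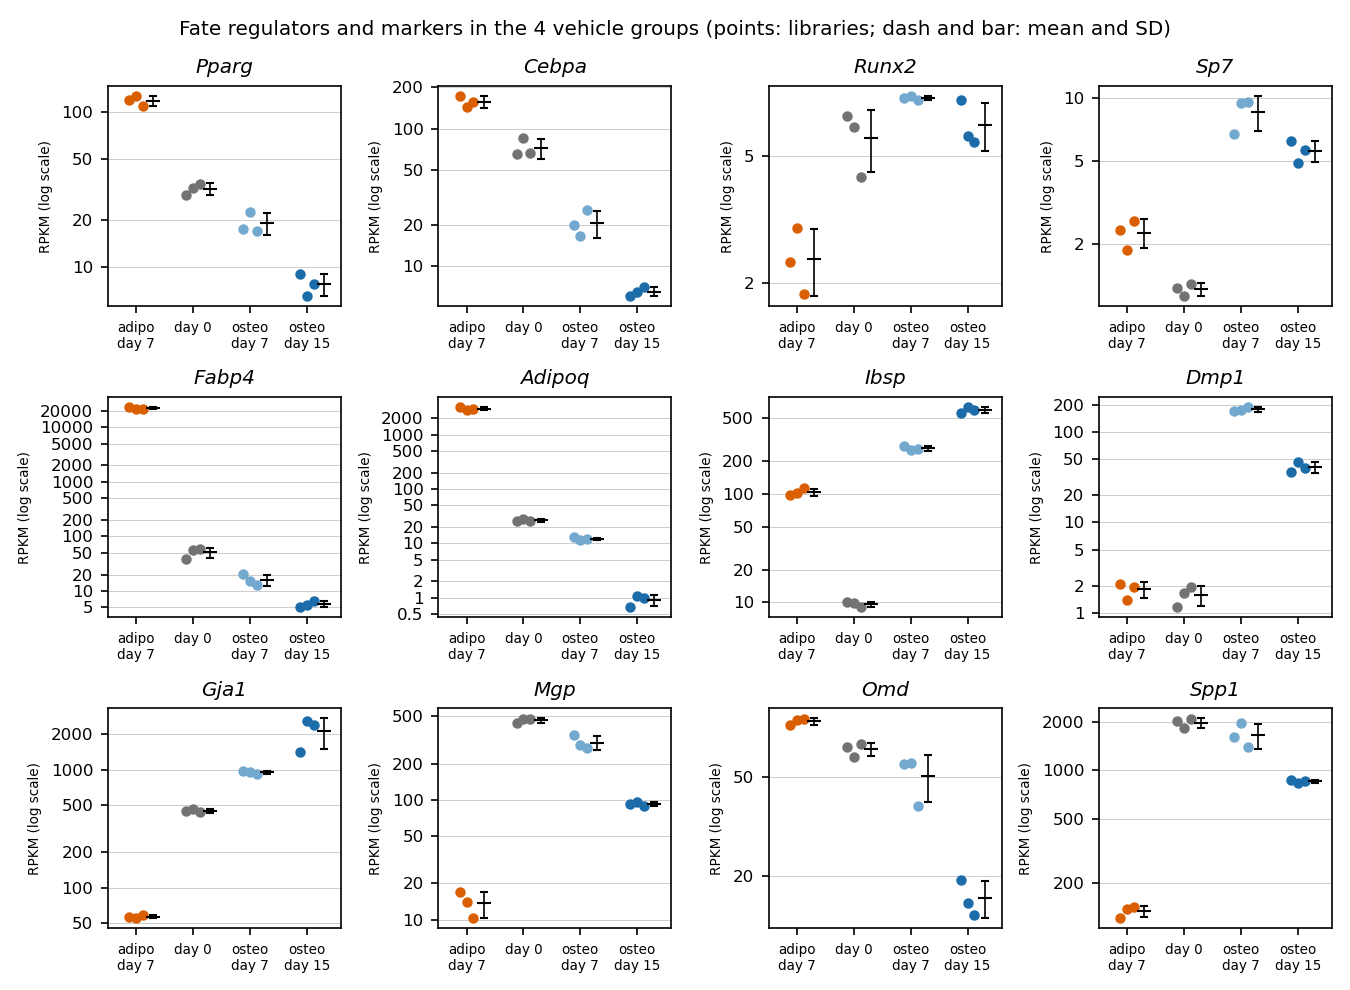
RPKM on log axes of 12 genes in the vehicle libraries of adipogenic day 7 (orange), day 0 (grey) and osteogenic days 7 and 15 (blue), with points for libraries and a dash with bar for mean and SD (n = 3 each). Pparg, Cebpa, Fabp4 and Adipoq are highest in adipogenic libraries and lowest at osteogenic day 15, while Mgp and Spp1 are highest at day 0.

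The same contrast was measured a second time in VD3-treated libraries, 3 of adipogenic day 7 and 3 of osteogenic day 15, which share no library with the vehicle ones. Of the 8106 genes called in vehicle libraries, 6914 (85.3%) were also called with the same sign there, which is 86.8% of the 7963 genes called in VD3-treated libraries, and 12 were called with opposite signs. Fabp4 had log2 differences of 11.31 in VD3-treated and 11.70 in vehicle libraries, and Gja1 -5.53 and -5.15. The difference between the contrasts, VD3-treated minus vehicle, was called for 151 genes (0.716%), 101 above 0 and 50 below, but for 79 after median-ratio rescaling. Ibsp had the largest difference below 0 among genes named, -3.32 ± 0.15 (SE). With VD3 it had 3.37, 3.54 and 2.77 RPKM in adipogenic libraries, against 228, 254 and 231 RPKM in osteogenic libraries, so its fall was deeper than in vehicle libraries. Omd had 9.52, 11.5 and 8.602 RPKM in VD3-treated adipogenic libraries, against 11.1, 9.65 and 15.4 RPKM in VD3-treated osteogenic libraries, which overlapped, so its rise was seen in vehicle libraries and not in VD3-treated ones (difference -2.54, adjusted p = 2.19e-07, limma). Mgp had 75.2, 115 and 89.4 RPKM in VD3-treated adipogenic libraries, against 117, 151 and 164 RPKM in VD3-treated osteogenic libraries, and its fall was smaller by 2.05 on the log2 scale. Dio2, which activates thyroid hormone, had 0.999, 1.51 and 0.515 RPKM in VD3-treated adipogenic libraries, against 120.3, 104 and 133 RPKM in VD3-treated osteogenic libraries. Inmt, a methyltransferase, turned round, with 23.5, 28.1 and 35.4 RPKM in VD3-treated adipogenic libraries, against 11.7, 14.7 and 17.4 RPKM in VD3-treated osteogenic libraries. The matrix genes Col1a1, Fbn1, Timp3 and Smoc2 fell less with VD3, by 1.27, 0.98, 1.12 and 2.19 on the log2 scale.

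**Figure D5:**
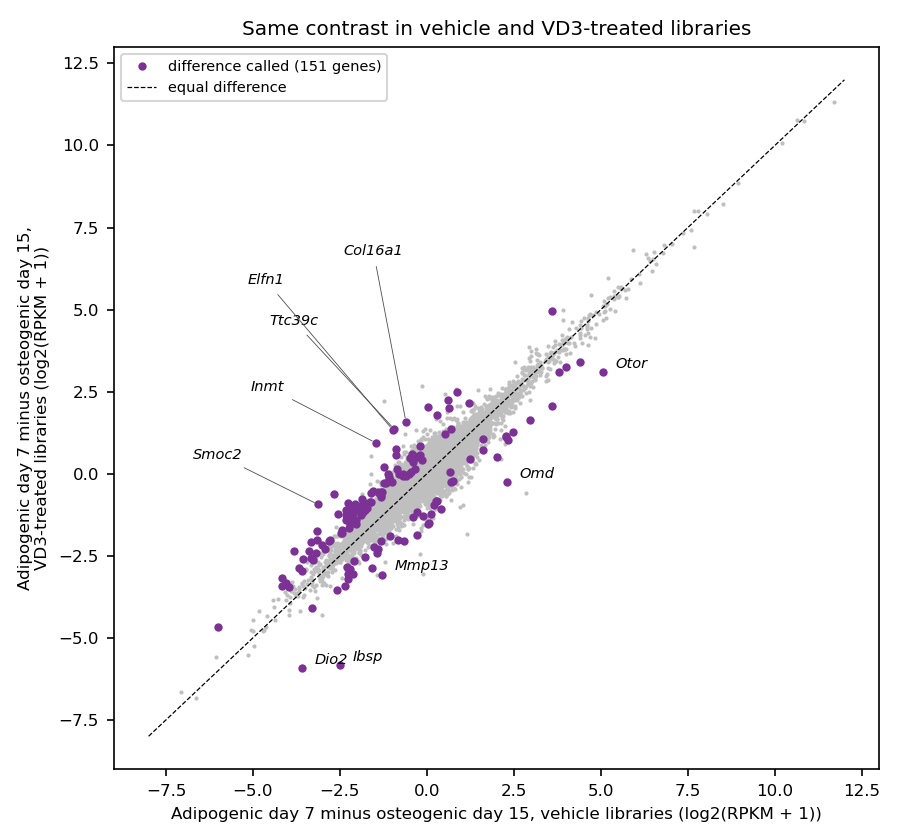
Log2 differences of 21097 genes, adipogenic day 7 minus osteogenic day 15, in vehicle libraries (horizontal) and VD3-treated libraries (vertical), with the line of equal difference and the 151 genes whose difference was called in purple. Most genes lie along the line, Ibsp and Dio2 lie below it, and Inmt, Ttc39c, Elfn1 and Col16a1 lie above 0 with VD3 and below 0 with vehicle.

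Markers of both labelled fates lay as the labels give them. The summed RPKM of 7 adipocyte markers was 27231 to 29447 in adipogenic libraries, against 6.84 to 8.01 in osteogenic day 15 libraries, and 6 of the 7 rose. Fabp4 alone made up most of this sum in both groups. The sum of 8 osteoblast markers was 122 to 144 in adipogenic libraries, against 673 to 751 in osteogenic libraries, and 8 of 8 fell. Only 7 fell after median-ratio rescaling, quantile normalization or background subtraction, and without osteogenic replicate 1 or adipogenic replicate 1. Ibsp alone made up most of the osteoblast sum in both groups. Of 18 hematopoietic markers 15 were under 1 RPKM in every adipogenic library and 15 in every osteogenic library, and the sums were 6.67 to 9.84 RPKM in adipogenic and 7.99 to 10.1 RPKM in osteogenic libraries. Ptprc (CD45), which marks blood cells, was at 0.458, 0.317 and 0.406 RPKM in adipogenic libraries, against 0.316, 0.213 and 0.343 RPKM in osteogenic libraries. Of 7 osteoclast markers Ctsk (cathepsin K) fell, with 9.41, 11.002 and 10.7 RPKM in adipogenic libraries, against 114, 126 and 129 RPKM in osteogenic libraries, while the osteoclast genes Acp5 and Calcr were under 1 RPKM in all 6 libraries. Another osteoclast marker, Tm7sf4 (Dcstamp), was under 1 RPKM in every adipogenic library, reached 1 RPKM in an osteogenic one and was not called. Of 6 endothelial markers Kdr (VEGF receptor 2) fell, with 0.392, 0.199 and 0.357 RPKM in adipogenic libraries, against 10.1, 13.5 and 13.8 RPKM in osteogenic libraries, while Pecam1, Cdh5 and Vwf were under 1 RPKM in all 6. Of the tested hematopoietic markers 2 rose and 1 fell, and Cd14, which macrophages and other cells carry, averaged 0.951 ± 0.242 RPKM in adipogenic and 4.13 ± 0.353 RPKM in osteogenic libraries. Of 7 chondrocyte markers Sox9 fell, with 0.43, 0.455 and 0.331 RPKM in adipogenic libraries, against 4.37, 3.89 and 4.798 RPKM in osteogenic libraries, Col2a1 rose as above, and the other two tested markers were not called. The part of other cell types in the results was not tested. The 6 skeletal muscle markers were under 1 RPKM in all 6 libraries.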

How the data were processed

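RNA depleted of ribosomal RNA (RiboMinus) was made into directional libraries (ScriptSeq v2), per the labels' protocols. The authors deposited 1 RPKM value per transcript and library, normalized to transcript length and library total. TopHat and the mouse build mm9 are named in the submitters' processing notes; the quantifier and the annotation are not given in the sources used here. RPKM of the transcripts of a symbol were summed (30795 transcripts, 25410 symbols). Of these, 25 symbols (40 transcripts) appear as calendar dates in place of gene names and were not used, so 25385 genes remained. Hmgcs1 was not analysed here.

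Differences were tested with limma 3.58.1 (R 4.3.3) on log2(RPKM + 1), after a filter of at least 1 RPKM in at least 3 of the 24 libraries. The fit held 8 groups and used trended, robust empirical Bayes, with Benjamini-Hochberg adjustment over all 21097 genes tested. Fits over all 24 libraries share 1 estimate of the spread. The difference between the VD3-treated and vehicle contrasts was a term of the same fit. Normalized values are not counts, so no count test was run. The fit was tested on simulated data first. Depth was estimated from 150 low olfactory receptor values per library, of which 74.7 to 85.3% lay within 0.1 of a whole read in the 6 libraries compared. The floor of 3 reads covers counting error only. No library pair held identical values.

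Genes were named by rule: the 14 largest rises and falls without overlap of the groups and with a mean of 5 RPKM or more where higher, up to 4 called rises and falls per list, markers fixed by name, and the 5 largest called differences each way between the VD3-treated and vehicle contrasts. Predicted genes, small RNAs, histone and sensory receptor genes were left out of the first. Members and lists were chosen with earlier results of these data known. Other genes named for their role, most of them not called or below 5 RPKM, were chosen after their values were seen, as were the motifs and the promoters printed. Some genes that the rule gave are not reported here.

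Alternatives were no filter, a pseudocount of 0.1, a 5 RPKM filter, a filter and a fit on the libraries compared, median-ratio rescaling, quantile normalization, subtraction of the receptor median, the largest transcript, plain empirical Bayes, the replicate number as a block, leaving out each library, and the VD3-treated libraries. Promoter windows came from RefSeq (GRCm38.p6) and were matched by symbol; no coordinate of the mm9 files was used. Motifs were searched on both strands. Figures were drawn with matplotlib 3.10.9 under Python 3.11.15, with numpy 2.4.6 and pandas 2.3.3.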

Additional observations from a re-analysis of the deposited data

Results flagged for a closer look

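For 29 named genes the contrast of adipogenic day 7 with osteogenic day 15 differed between VD3-treated and vehicle libraries by the interaction term (limma, adjusted p below 0.05). Of all genes, 0.716% were called so. Of the 29, 22 were among the 223 genes named for the main contrast. The others were named because this same test called them, so the 29 cannot be set against that share. Genes not reported here are left out of these counts. The value given is the log2 contrast in VD3-treated libraries minus that in vehicle libraries. It was above 0 for 19 genes and below 0 for 10, and 22 of the 29 were also called after median-ratio rescaling, 23 after quantile normalization, 26 with the replicate block and 23 after background subtraction.

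Values above 0 were smaller falls or a change of sign with VD3. In matrix and contractile genes they were 2.05 for Mgp, 2.18 for Col16a1, 1.27 for Col1a1, 0.66 for Col1a2, 0.51 for Col8a1, 0.98 for Fbn1, 2.19 for Smoc2 (a matricellular protein), 1.12 for Timp3 (a metalloproteinase inhibitor) and 0.82 for Myl9 (a myosin light chain). Among signalling genes they were 1.34 for Sfrp4, 1.09 for Tgfbr2, 0.56 for Tgfb3, 0.92 for Rarb, 0.96 for Ptgfr (a prostaglandin receptor) and 0.78 for Errfi1. The remaining values above 0 were 1.08 for Elovl6, 2.30 for Elfn1, 2.40 for Inmt and 2.31 for Ttc39c. Col16a1 had 8.65, 8.47 and 8.02 RPKM in VD3-treated adipogenic libraries, against 2.25, 2.32 and 1.87 RPKM in VD3-treated osteogenic libraries, and in vehicle libraries 1.42, 1.18 and 0.931 RPKM in adipogenic ones, against 2.34, 2.18 and 2.36 RPKM in osteogenic ones. Its adipogenic values were thus above the osteogenic ones with VD3 and below them with vehicle.

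Values below 0 were -3.32 for Ibsp, -2.54 for Omd, -1.30 for Aspn (asporin), -1.79 for Mmp13 (a collagenase of bone), -1.33 for Kitl, -0.71 for Rspo2 (a Wnt agonist), -0.78 for Sfrp2, -1.95 for Otor, -2.33 for Dio2 and -0.98 for Cebpa. Mmp13 had 15.8, 17.5 and 18.001 RPKM in VD3-treated adipogenic libraries, against 149.9, 145 and 159 RPKM in VD3-treated osteogenic libraries, and in vehicle libraries 24.3, 27.9 and 26.2 RPKM in adipogenic ones, against 62.1, 61.9 and 70.95 RPKM in osteogenic ones. Cebpa had 109, 111 and 105 RPKM in VD3-treated adipogenic libraries, against 8.14, 8.21 and 11.9 RPKM in VD3-treated osteogenic libraries, so it rose with VD3 too, by a log2 difference of 3.41 beside 4.39 with vehicle. Of the 29 genes, 5 had contrasts of opposite sign in VD3-treated and vehicle libraries.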

How the results depend on the processing

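The count of called genes stayed within 1.5 times of 8106 under every alternative, from 7121 at a filter of 5 RPKM to 8906 in a fit on the libraries compared. Leaving out 1 library gave 7451 to 7601 calls, 2298 to 2385 higher and 5145 to 5232 lower. The 151 genes whose contrast differed between VD3-treated and vehicle libraries became 79 after median-ratio rescaling, 39 above 0 and 40 below; leaving out 1 library gave 116 to 141, with 73 to 96 above 0 and 38 to 48 below. Replicate numbers were shared between groups, but whether they pair libraries is not stated. Deviations of same-numbered libraries correlated at 0.042, -0.020 and -0.017, and those of differently numbered ones at -0.065 to 0.078. These values showed no pairing and cannot exclude one. The replicate block gave 8085 calls (2539 higher, 5546 lower) and 141 differing contrasts (92 above 0, 49 below).

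Of 223 genes that the naming rule gave for the main contrast, 220 were called, and 14 lost their call after median-ratio rescaling, 11 after quantile normalization, 5 after background subtraction, 3 with the largest transcript, 1 with a pseudocount of 0.1, 13 in VD3-treated libraries and 0 with the replicate block. With 1 library left out, 3 to 5 of the 220 lost it, 23 calls in all over 6 fits. Signs reversed for Vdr (0.044 after median-ratio rescaling, 0.57 in VD3-treated libraries), Cebpb (-0.20 in VD3-treated libraries) and Omd (-0.24 in VD3-treated libraries). The causes were not tested. Rn7sk also lost its call and sign after quantile normalization (0.00), which that method fixes for the top gene of every library. Values near 1 RPKM are limited by depth and by the receptor background.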
